A study of Homo sapiens with 4 samples.

Results

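The genes described here encode the SR proteins, the hnRNPs and other regulators that decide which exons of a transcript are kept. They were chosen by name as a list of 55 genes, 1 row each, among the 64252 gene IDs of the count table, and all 55 were found through their Ensembl IDs. J.gamma1 cells, a Jurkat subline (human T-cell acute lymphoblastic leukaemia) known to lack the phospholipase PLCG1, received FB23-2 at 10 µM or only its DMSO vehicle (under 0.1%) and were collected after 48 h. FB23-2 inhibits FTO, a demethylase that takes N6-methyladenosine off RNA. Each group holds 2 biological replicates of this 1 cell line, and total counts were 37804516 and 33983246 with FB23-2, against 24615359 and 34897961 in control.

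SR proteins carry RNA-binding domains and a tail rich in arginine and serine, and they commonly bind exonic enhancers and recruit the splicing machinery. The hnRNPs coat nascent transcripts and often, though not always, act against the use of a nearby splice site. Kinases of the SRPK and CLK families phosphorylate the arginine-serine tails and so control where SR proteins sit and when they work. In T cells hnRNP L and hnRNP L-like are known for the skipping of variable exons of the phosphatase CD45. Many of these genes are also known to limit their own output through exons that send the transcript to decay, which counts per gene cannot separate from productive transcripts.

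All 10 T-lineage markers examined, among them CD3E, LCK and ZAP70, reached at least 1 CPM in some library, and their summed level was 1366 to 1444 CPM with FB23-2 and 1937 to 1945 CPM in control. The 3 erythroid markers stayed below 1 CPM in every library, as did 3 of 5 myeloid and 1 of 3 epithelial markers. Of 5 B-lineage markers, CD79A stood at 43.4 ± 1.58 CPM with FB23-2, against 41.6 ± 3.81 CPM in control (SD, n = 2 each), while MS4A1 and PAX5 stayed below 1 CPM in every library. PLCG1 RNA was counted at 293 ± 2.49 CPM with FB23-2, against 265 ± 0.276 CPM in control (SD, n = 2 each), so the RNA gives no check of the protein defect. Levels in CPM are counts relative to the library size after scaling by the trimmed mean of M values (TMM). A positive log2 fold change means higher with FB23-2, and ± after it gives the standard error (SE). In bulk RNA a lower level per cell and fewer cells with the transcript cannot be told apart.

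The 250 bases before the RefSeq start are shown for 6 members, the 3 that fell most and the 3 that rose most among those with 1 start in the table, so that the promoters of genes that moved apart can be read side by side. They are on build GRCh38.p14, and each is written 5′ to 3′ along the strand of its gene. Capitals mark CACGTG (the E-box that MYC and related factors bind), CCGGAAG (a core of ETS sites) and CCAAT, each searched on both strands. The motifs do not overlap each other in these windows.
RBM3 (chrX:48574234-48574483, plus strand): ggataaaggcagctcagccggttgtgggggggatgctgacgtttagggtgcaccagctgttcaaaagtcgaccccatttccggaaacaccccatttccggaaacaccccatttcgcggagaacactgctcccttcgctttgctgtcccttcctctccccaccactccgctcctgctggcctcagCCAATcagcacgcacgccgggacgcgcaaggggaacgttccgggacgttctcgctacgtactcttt
HNRNPM (chr19:8444725-8444974, plus strand): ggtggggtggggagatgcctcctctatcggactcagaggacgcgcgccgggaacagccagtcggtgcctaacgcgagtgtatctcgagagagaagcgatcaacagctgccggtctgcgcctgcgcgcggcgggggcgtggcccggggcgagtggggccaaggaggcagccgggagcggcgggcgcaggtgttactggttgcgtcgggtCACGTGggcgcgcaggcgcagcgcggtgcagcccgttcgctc
SRSF1 (chr17:58007247-58007496, minus strand): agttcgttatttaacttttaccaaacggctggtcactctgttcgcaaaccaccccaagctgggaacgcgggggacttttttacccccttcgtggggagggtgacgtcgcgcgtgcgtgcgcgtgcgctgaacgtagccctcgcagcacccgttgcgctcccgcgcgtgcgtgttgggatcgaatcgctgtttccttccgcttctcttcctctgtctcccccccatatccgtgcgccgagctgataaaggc
PTBP3 (chr9:112333027-112333276, minus strand): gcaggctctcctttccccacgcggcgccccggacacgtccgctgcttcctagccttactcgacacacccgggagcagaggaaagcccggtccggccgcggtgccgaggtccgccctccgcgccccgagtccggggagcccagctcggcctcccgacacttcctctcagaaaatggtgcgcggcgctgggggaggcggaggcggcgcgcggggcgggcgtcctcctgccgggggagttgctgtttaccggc
RBM5 (chr3:50088669-50088918, plus strand): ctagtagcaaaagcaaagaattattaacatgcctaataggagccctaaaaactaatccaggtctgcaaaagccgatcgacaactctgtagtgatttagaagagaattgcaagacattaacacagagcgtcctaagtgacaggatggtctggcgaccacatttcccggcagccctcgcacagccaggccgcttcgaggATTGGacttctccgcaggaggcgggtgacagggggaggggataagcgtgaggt
CLK4 (chr5:178627051-178627300, minus strand): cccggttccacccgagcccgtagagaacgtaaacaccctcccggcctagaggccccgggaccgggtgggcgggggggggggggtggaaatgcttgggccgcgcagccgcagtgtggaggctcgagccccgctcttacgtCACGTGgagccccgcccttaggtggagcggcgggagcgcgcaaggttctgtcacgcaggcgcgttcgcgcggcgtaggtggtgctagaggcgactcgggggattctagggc
CACGTG is present once before HNRNPM, which fell, and once before CLK4, which rose. CCAAT is present once before RBM3 and, on the other strand, once before RBM5, and none of the searched letters lie before SRSF1 or PTBP3 in these windows. In each of the 6 genes the gene as annotated in GENCODE release 29 begins inside the window or upstream of it.

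Promoter entries were found for 51 of the 55 genes, with 89 windows of this length. CACGTG lay in at least 1 window of 9 of the 51 genes (17.6%), against 7.73% of all 27305 genes with promoter entries. These 27305 genes were not limited to those tested or expressed here. Shares for genes of a level like that of the members were not computed. It was present in 5 of the 29 members with an entry that fell (HNRNPM, HNRNPDL, HNRNPD, MBNL1 and HNRNPA3), in 1 of the 10 that rose and in 3 of the 11 that did not pass. CCAAT lay before 30 of the 51 genes (58.8%) and before 37% of all genes with promoter entries, and CCGGAAG before 7 (13.7%) and 10.2%. Members with several listed starts have more windows in which a motif can occur. Counted per window, CACGTG lay in 11.2% of the 89 windows and in 6.34% of all 35116, and CCAAT in 40.4% and 32%. For CCGGAAG the order turned round per window, with 7.87% of the members' windows and 8.52% of all.

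With FB23-2 more of the splicing regulators were lower than higher, and 4 of the 6 kinases were among those higher. Of the 55 genes, 54 passed the filter on low counts, and 31 of these were lower and 11 higher with FB23-2 by edgeR's quasi-likelihood test at an adjusted p under 0.05. The background for these calls was high, since 20.3% of all 18817 tested genes were lower and 21.8% higher, 42.1% in either direction. The members' shares were 57.4% lower and 20.4% higher. Among the 2439 tested genes with a mean of at least 100 CPM, 34.5% were lower and 36% higher, 70.5% in either direction, and of the 45 members at that level 29 were lower (64.4%) and 6 higher (13.3%). The members' median log2 fold change was -0.18, beside 0.00 over all tested genes and 0.00 over those of at least 100 CPM.

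At a change of at least 1.5-fold, 12 members were lower and 4 higher, or 22.2% and 7.41% of those tested. Of all tested genes 9.61% were lower and 7.76% higher by this much, and of those of at least 100 CPM 7.71% and 4.63%. Of the 45 members of at least 100 CPM, 10 were lower (22.2%) and 2 higher (4.44%) by this much. The groups did not overlap in 45 of the 54 tested members, against 70.8% of all tested genes. For genes of at least 100 CPM this share was not computed. SRSF12, an SR-like gene, had 2 and 0 counts with FB23-2 and 2 and 4 in control, and was not tested. Together the 55 genes took 18228 and 18091 CPM in the FB23-2 libraries, against 22466 and 22649 CPM in the control libraries.

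**Figure D1:**
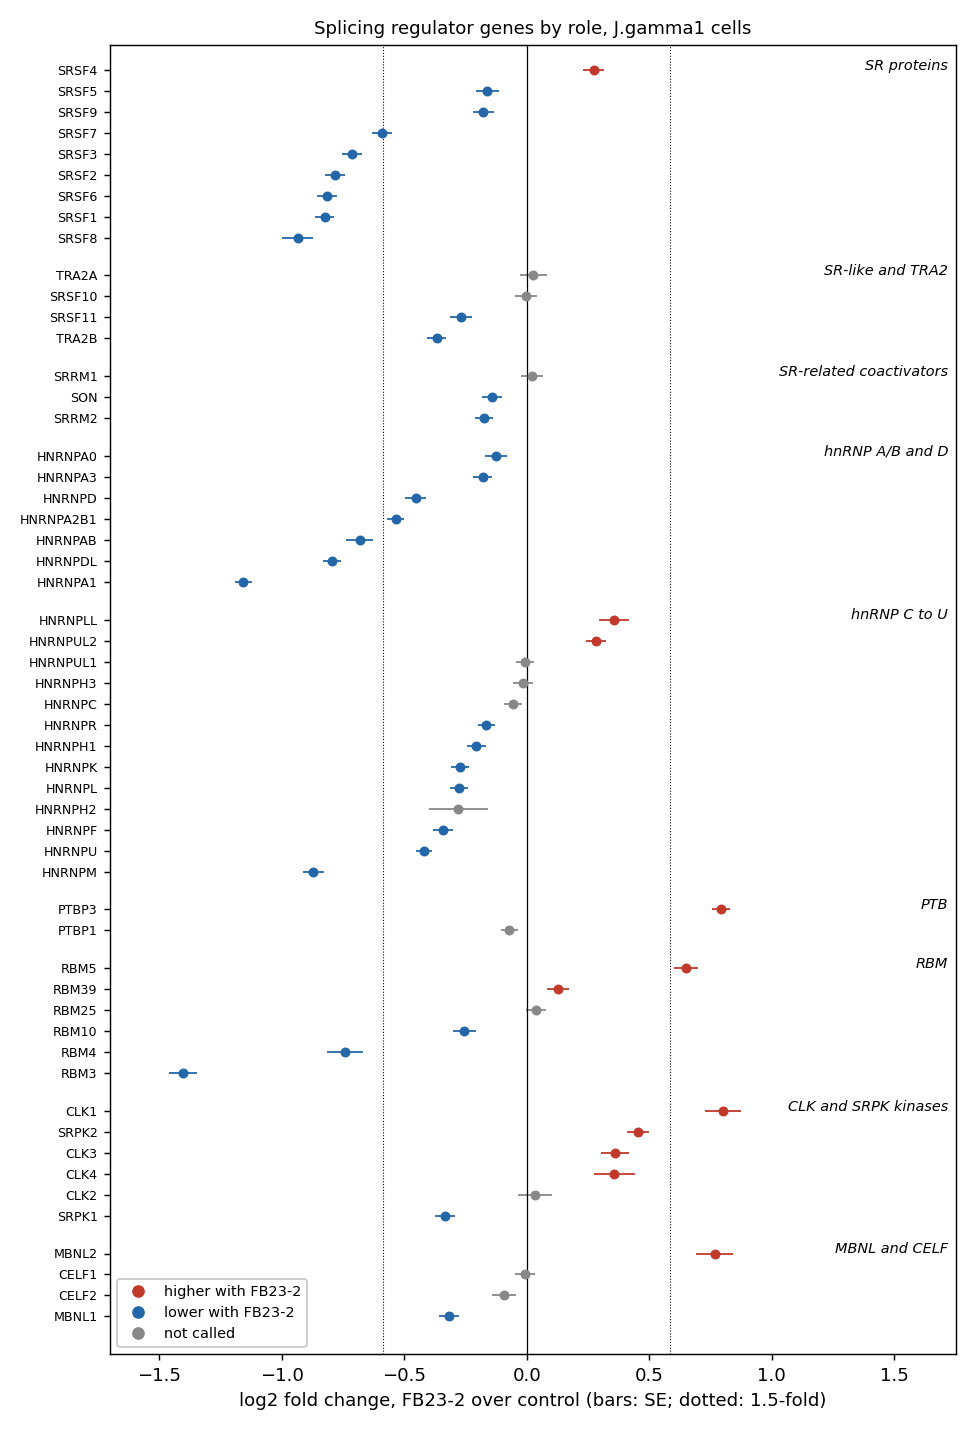
Log2 fold change (FB23-2 over control, horizontal axis) of the 54 tested members by role, with SE as bars and the 1.5-fold change as dotted lines. All 7 members of the hnRNP A/B and D group and 8 of 9 SR proteins lie left of 0, while 4 of 6 kinases were called higher. Of all tested genes 20.3% were called lower and 21.8% higher, and of those of at least 100 CPM 34.5% and 36%.

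**Figure D2:**
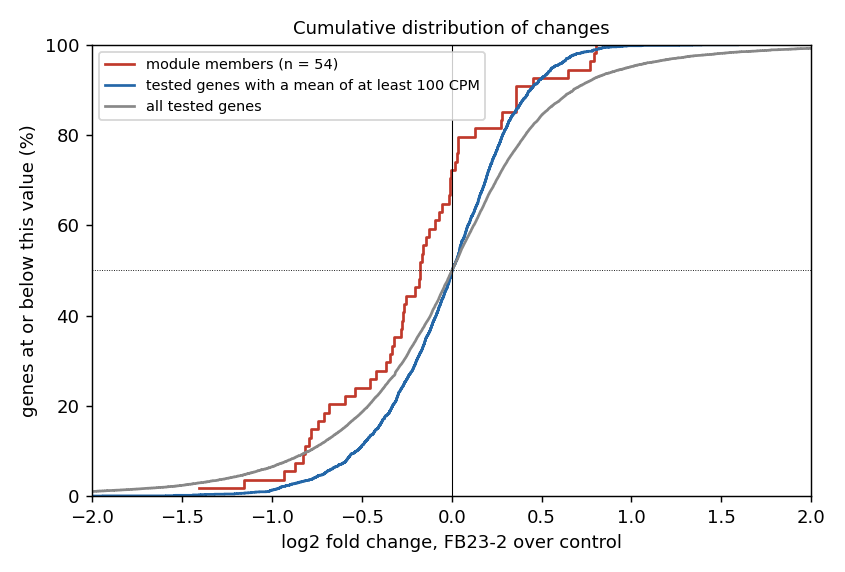
Share of genes (%) at or below each log2 fold change, for the 54 members, for the 2439 tested genes of at least 100 CPM and for all 18817 tested genes. The members' curve lies left of the others at its middle, with a median of -0.18 against 0.00 for both comparison sets.

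Of the 9 SR proteins, 8 were lower and 1, SRSF4, was higher, with a median log2 fold change of -0.71. By at least 1.5-fold 6 were lower and 0 higher. Over all tested genes 20.3% were lower, and 9.61% by at least 1.5-fold. At 100 CPM or more these shares were 34.5% and 7.71%. SRSF1, the founding SR protein and the member of the group with the highest level per exon length, stood at 269 and 280 CPM with FB23-2, against 480 and 492 CPM in control. It changed by -0.82 ± 0.04 on the log2 scale (edgeR adjusted p = 9.83e-07). SRSF3, a small SR protein that also acts in mRNA export, had 386 and 372 CPM with FB23-2 and 604 and 639 CPM in control. SRSF1 (ENSG00000136450) lies on chromosome 17, 58003360 to 58007346 on hg38. In both genes the groups lay far apart relative to the gap between replicates. SRSF3 changed by -0.71 ± 0.04 (edgeR adjusted p = 2.59e-06).

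SRSF2, which binds exonic enhancers and stays in the nucleus, was at 249 and 245 CPM with FB23-2 and at 415 and 435 CPM in control (log2 fold change -0.78 ± 0.04). SRSF8, a retrogene relative of SRSF2, was at 34.5 and 36.4 CPM with FB23-2 and at 66.7 and 68.6 CPM in control (-0.93 ± 0.06). These relatives both fell, and SRSF8 fell the most of the SR proteins. SRSF6 was at 179 and 182 CPM with FB23-2 and at 316 and 319 CPM in control (-0.82 ± 0.04). SRSF7, which like SRSF3 is an adaptor for mRNA export, was at 150 and 147 CPM with FB23-2 and at 222 and 225 CPM in control (-0.59 ± 0.04). All 6 of these genes passed with edgeR adjusted p of at most 6.02e-06, and none of their FB23-2 values reached a control value.

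SRSF9 (-0.18 ± 0.04) and SRSF5 (-0.16 ± 0.05) passed by smaller margins. SRSF9 lost its call without control replicate 1 (edgeR adjusted p = 0.0607, lowest 0.00285 among the alternatives). SRSF5 lost it without FB23-2 replicate 2 (0.139), without control replicate 2 (0.249), with library size scaling (0.0784) and with no low-count filter (0.102), and its alternatives spanned 0.00744 to 0.249. SRSF4 went the other way: it stood at 166 and 168 CPM with FB23-2 and at 140 and 137 CPM in control, a log2 fold change of 0.27 ± 0.04 (edgeR adjusted p = 7.77e-04). SRSF4, SRSF5 and SRSF6 are close relatives, and they spanned 0.27 to -0.82. Summed over the 9 genes, SR protein transcripts took 1989 and 1963 CPM with FB23-2, against 2841 and 2937 CPM in control.

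Some of these rows share bases with other annotated genes, and the strand setting of the counting is not given in the sources used here. SRSF2 shares 36.7% of its exon bases with MFSD11 on the opposite strand, which had 56.9 CPM with FB23-2, against 55.3 CPM in control. SRSF9 shares 46.2% with GATC on the opposite strand, with 93.4 CPM with FB23-2, against 105 CPM in control, so the small change of SRSF9 is uncertain. SRSF1 shares 56.6% with an uncharacterised gene on the same strand that had 0.409 CPM with FB23-2, against 0.523 CPM in control. HNRNPU shares 15.6% with COX20, HNRNPAB 9.14% with PHYKPL and MBNL1 11.4% with MBNL1-AS1, all on the opposite strand.

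The SR-like genes moved less. TRA2B, which binds GAA-rich enhancers, was lower (-0.37 ± 0.04, edgeR adjusted p = 7.26e-05), and its relative TRA2A did not pass (0.03 ± 0.06). SRSF11, the group's highest per exon length, was at 318 and 344 CPM with FB23-2 and at 395 and 401 CPM in control (-0.27 ± 0.05, edgeR adjusted p = 0.00119). SRSF10 was at 336 and 351 CPM with FB23-2 and 331 and 357 CPM in control, groups that overlap (0.00 ± 0.05). Among the large SR-related proteins, SRRM2, a scaffold of nuclear speckles, was at 862 and 911 CPM with FB23-2 and at 1003 and 998 CPM in control (-0.17 ± 0.04). It passed at an edgeR adjusted p of 0.0046, but not without control replicate 2 (0.0572, range 4.86e-05 to 0.0572). SON, another speckle scaffold, passed (-0.14 ± 0.04) but lost its call with library size scaling (edgeR adjusted p = 0.0971) and with FB23-2 replicate 1 (0.0634), control replicate 1 (0.0577) or control replicate 2 (0.161) left out, the lowest among its alternatives being 0.00408. SRRM1 did not pass (0.02 ± 0.04).

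Of the hnRNP A/B and D genes 7 of 7 were called lower and 0 higher, with a median log2 fold change of -0.53. Their changes spanned -1.16 to -0.13. Beside this count, 20.3% of all tested genes were lower, and 34.5% of those of at least 100 CPM. HNRNPA1, which binds UAG-containing motifs and commonly silences exons, was the member with the highest level per exon length, at 192 ± 5.88 RPKM with FB23-2 and 427 ± 4.18 RPKM in control (SD, n = 2 each). The gene (ENSG00000135486) lies on chromosome 12, 54280193 to 54287088 on hg38. In CPM it stood at 997 and 955 with FB23-2 and at 2160 and 2190 in control. The FB23-2 libraries held less than the lowest control value by a wide margin, with a change of -1.16 ± 0.04 on the log2 scale (edgeR adjusted p = 1.73e-07). HNRNPA1 has many near-identical retrocopies. The 74 rows annotated as its pseudogenes summed to 38.9 and 36.8 CPM with FB23-2, against 81.3 and 81.7 CPM in control, or 3.73% to 3.9% of the HNRNPA1 count in each library. With these rows added to it, the change was -1.15 ± 0.04.

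HNRNPDL, an hnRNP D relative, was at 268 and 271 CPM with FB23-2 and at 471 and 463 CPM in control (-0.79 ± 0.04). HNRNPAB was at 218 and 194 CPM with FB23-2 and at 327 and 334 CPM in control (-0.68 ± 0.05). HNRNPA2B1, also described as a reader of N6-methyladenosine, was at 1274 and 1216 CPM with FB23-2 and at 1799 and 1810 CPM in control. HNRNPD, known as the mRNA decay factor AUF1, changed by -0.45 ± 0.04. The groups did not overlap in any of the 4, each with an edgeR adjusted p of at most 4.02e-05. HNRNPA3 (-0.18 ± 0.04) lost its call without control replicate 1 (edgeR adjusted p = 0.0655, range 3.22e-04 to 0.0655). HNRNPA0 (-0.13 ± 0.05) passed barely at 0.0495 and lost its call under 5 alternatives, among them those without FB23-2 replicate 2 (0.283), control replicate 1 (0.107) and control replicate 2 (0.276), the lowest among its alternatives being 0.0118. The 7 genes summed to 4606 and 4409 CPM with FB23-2 and to 6919 and 6996 CPM in control.

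The other hnRNPs were more mixed, with 7 lower, 2 higher and 4 that did not pass of 13. Over all tested genes the shares were 20.3% lower and 21.8% higher, and over those of at least 100 CPM 34.5% and 36%. HNRNPM, which binds GU-rich RNA, fell most in this group: it was at 173 and 165 CPM with FB23-2 and at 305 and 312 CPM in control (-0.87 ± 0.04, edgeR adjusted p = 1.02e-06). HNRNPU, a nuclear scaffold protein (-0.42 ± 0.03), HNRNPF, which binds G-runs (-0.34 ± 0.04), and HNRNPL (-0.28 ± 0.04) fell less. HNRNPK, a poly(C)-binding protein and the group's highest per exon length, stood at 687 and 679 CPM with FB23-2 and at 842 and 809 CPM in control (-0.27 ± 0.04). HNRNPH1 (-0.21 ± 0.04) and HNRNPR (-0.17 ± 0.04) completed those called lower, and HNRNPR lost its call without control replicate 2 (edgeR adjusted p = 0.0614, range 2.04e-04 to 0.0614). HNRNPC, which binds U tracts, did not pass (-0.06 ± 0.04), at 1037 and 1001 CPM with FB23-2 and 1085 and 1034 CPM in control, groups that overlap. HNRNPH3 (-0.02 ± 0.04) and HNRNPUL1 (-0.01 ± 0.04) did not pass either.

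HNRNPLL was higher (0.36 ± 0.06, edgeR adjusted p = 0.00149), at 73.2 and 70.9 CPM with FB23-2 and at 53.8 and 58.5 CPM in control, while its relative HNRNPL was lower. HNRNPUL2 was higher as well (0.28 ± 0.04, edgeR adjusted p = 4.69e-04). It shares 44.1% of its exon bases with a read-through gene on the same strand, HNRNPUL2-BSCL2, with 82.9 CPM with FB23-2, against 60.6 CPM in control, and the change with that row added was 0.32 ± 0.04. HNRNPH2 was at 74.6 and 60.6 CPM with FB23-2 and at 76.3 and 87.4 CPM in control, so that its replicates lay far apart. The log2 fold change was -0.28 ± 0.12 and missed the threshold (edgeR adjusted p = 0.128). With the read-through RPL36A-HNRNPH2 added it was -0.44 ± 0.06 (edgeR adjusted p = 4.62e-04). That read-through row had 8.88 CPM with FB23-2, against 21.4 CPM in control. Its own change was uncertain (-1.32 ± 1.41, edgeR adjusted p = 0.565). Without FB23-2 replicate 1 the change of HNRNPH2 was -0.46. With library size scaling HNRNPH2 did not pass (-0.23 ± 0.12, edgeR adjusted p = 0.174). All 20 hnRNP genes together took 10319 and 10020 CPM with FB23-2, against 13427 and 13459 CPM in control.

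**Figure D3:**
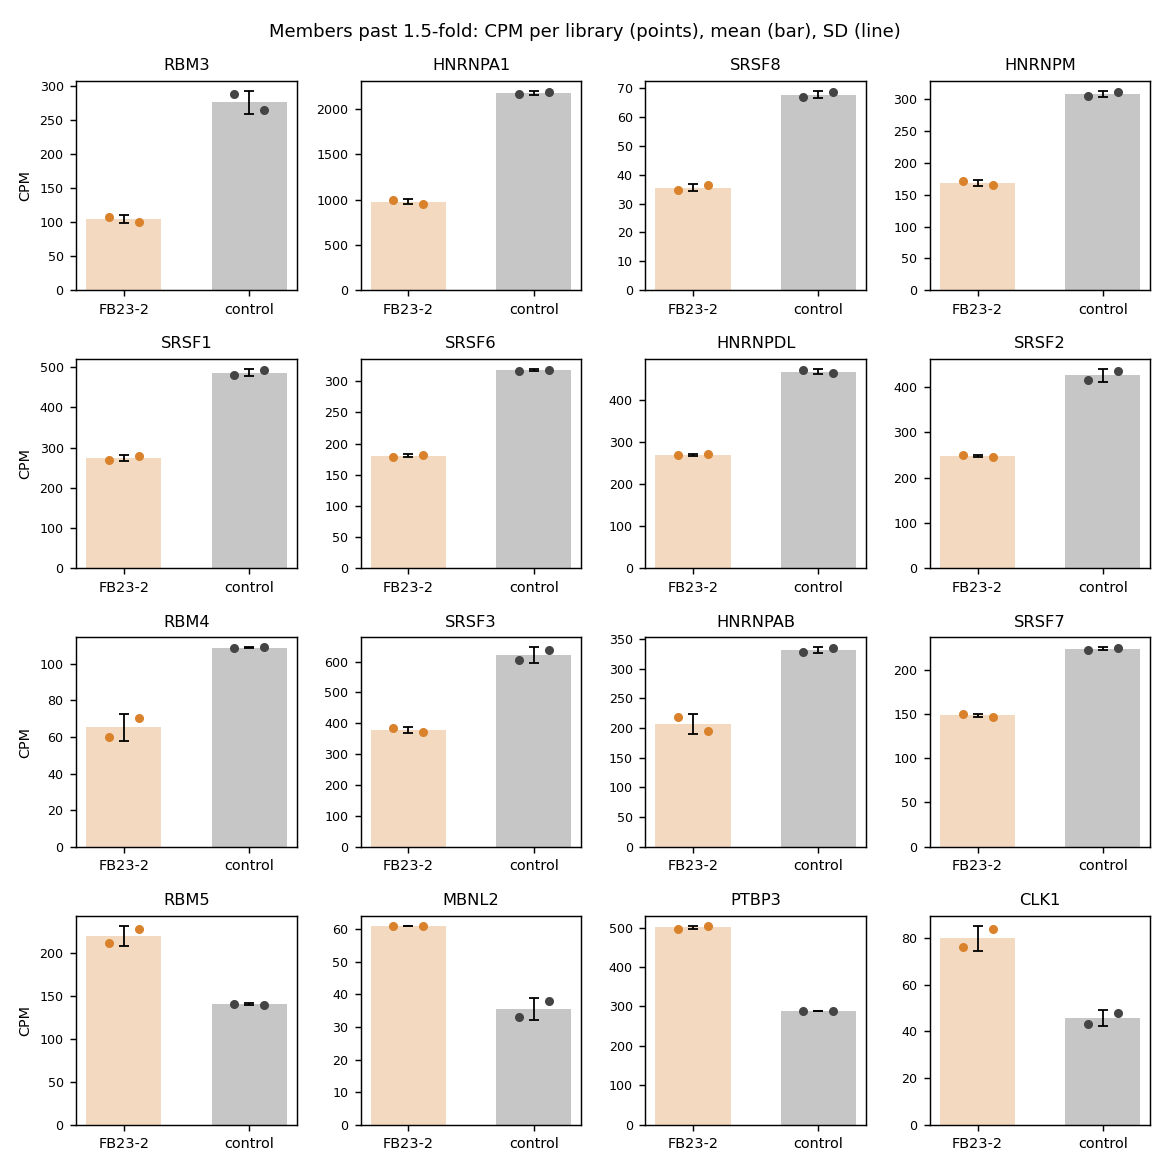
CPM (vertical axes, each from 0) of the 16 members called with a change of at least 1.5-fold, with FB23-2 left and control right in each panel. Points are libraries, bars the mean and lines the SD of 2 libraries, and in every panel the points of the groups lie apart, with RBM5, MBNL2, PTBP3 and CLK1 higher with FB23-2.

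PTBP3 rose, and PTBP1 did not pass the test. Both encode polypyrimidine tract-binding proteins, which bind CU-rich RNA and commonly repress exons. PTBP3 was at 497 and 504 CPM with FB23-2 and at 289 and 288 CPM in control (0.79 ± 0.04, edgeR adjusted p = 8.52e-07). PTBP1 was at 466 and 458 CPM with FB23-2 and at 486 and 485 CPM in control (-0.07 ± 0.04), and did not pass except with upper quartile scaling (edgeR adjusted p = 0.0298, range 0.0298 to 0.625). PTBP3 (ENSG00000119314) lies on chromosome 9, 112217716 to 112333667 on hg38. Within a library the count of PTBP3 over that of PTBP1 was 1.07 and 1.1 with FB23-2 and 0.594 in both control libraries.

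The RBM genes held the largest fall of all members, that of RBM3 (ENSG00000102317, chromosome X, 48574449 to 48579066 on hg38). RBM3, a small RNA-binding protein induced by mild cold, was at 108 and 100 CPM with FB23-2 and at 288 and 265 CPM in control, which is -1.40 ± 0.06 on the log2 scale (edgeR adjusted p = 5.08e-07). CIRBP, the other well-known cold-inducible RNA-binding gene and not a member, had 215 CPM with FB23-2, against 209 CPM in control, and did not pass (0.04 ± 0.05, edgeR adjusted p = 0.51). RBM4 was at 60.1 and 70.4 CPM with FB23-2 and at 109 CPM in both control libraries (-0.74 ± 0.07). It shares 24.2% of its exon bases with the read-through RBM14-RBM4 on the same strand, which had 26.7 CPM with FB23-2, against 15.7 CPM in control. With that row added the fall was -0.44 ± 0.05 and still passed (edgeR adjusted p = 7.39e-05), so its size is uncertain.

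RBM5, a tumour suppressor candidate that regulates exons of apoptosis genes, was at 211 and 228 CPM with FB23-2 and at 141 and 139 CPM in control (0.65 ± 0.05, edgeR adjusted p = 9.4e-06). Its relative RBM10 was lower (-0.25 ± 0.05, edgeR adjusted p = 0.00183), though 16.4% of RBM10 exon bases are shared with NDUFB11 on the opposite strand. RBM5 shares 9.71% of its exon bases with RBM5-AS1 and 7.73% with SEMA3F-AS1, both on the opposite strand. With RBM6, on the same strand, RBM5 shares 4.4%. RBM39, a U2AF-related splicing coactivator, was at 345 and 364 CPM with FB23-2 and at 314 and 333 CPM in control (0.13 ± 0.05). Its edgeR adjusted p of 0.0463 did not hold under 8 alternatives, among them each of the 4 omissions of a library: without FB23-2 replicate 1 it was 0.0568, without FB23-2 replicate 2 it was 0.2, without control replicate 1 it was 0.419 and without control replicate 2 it was 0.0711. DESeq2 gave an adjusted p of 0.0617 for it, and the range was 0.0118 to 0.419. RBM25, which binds exonic enhancers, did not pass (0.04 ± 0.04).

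The kinases that phosphorylate SR proteins were called higher in 4 of 6 cases and lower in 1. Beside this count, 21.8% of all tested genes were higher and 20.3% lower. At 100 CPM or more these shares were 36% and 34.5%. CLK1, a nuclear kinase whose own transcript is known to keep introns until they are removed on demand, was at 76.2 and 83.8 CPM with FB23-2 and at 43.3 and 48.1 CPM in control (0.80 ± 0.07, edgeR adjusted p = 3.03e-05). CLK1 (ENSG00000013441) lies on chromosome 2, 200853009 to 200864744 on hg38. CLK3 (0.36 ± 0.06, edgeR adjusted p = 9.8e-04) and CLK4 (0.36 ± 0.08, edgeR adjusted p = 0.00721) were also higher, and CLK2 did not pass (0.03 ± 0.07). CLK4 was low, at 34.5 and 32.1 CPM with FB23-2 and 25 and 26.8 CPM in control. It lost its call without FB23-2 replicate 1 (edgeR adjusted p = 0.0633) and without control replicate 1 (0.0643), and the lowest among its alternatives was 0.00357. Counts per gene do not tell retained introns from spliced transcripts.

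The mainly cytoplasmic SRPK kinases parted. SRPK2 was at 175 and 181 CPM with FB23-2 and at 131 and 129 CPM in control (0.46 ± 0.04, edgeR adjusted p = 4.34e-05). SRPK1, the group's highest per exon length, was at 195 and 189 CPM with FB23-2 and at 242 and 243 CPM in control (-0.33 ± 0.04, edgeR adjusted p = 1.62e-04). The muscleblind genes, whose proteins bind YGCY motifs, parted in the same manner. MBNL2 was at 61 and 60.9 CPM with FB23-2 and at 33.2 and 38 CPM in control (0.77 ± 0.07, edgeR adjusted p = 4.38e-05). MBNL1 was at 242 and 247 CPM with FB23-2 and at 297 and 312 CPM in control (-0.32 ± 0.04, edgeR adjusted p = 2.59e-04). Neither CELF1 (-0.01 ± 0.04) nor CELF2 (-0.09 ± 0.05), which bind GU-rich elements, passed, except CELF2 with upper quartile scaling (edgeR adjusted p = 0.0488, range 0.0488 to 0.506).

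Ratios of related genes within a library do not depend on how libraries are scaled. MBNL2 over MBNL1 was 0.252 and 0.247 with FB23-2, against 0.112 and 0.122 in control. SRPK2 over SRPK1 was 0.895 and 0.958 with FB23-2, against 0.539 and 0.533 in control. Both ratios were higher in each FB23-2 library than in either control library. SRSF4 over SRSF6 was 0.928 and 0.921 with FB23-2, against 0.441 and 0.428 in control. RBM5 over RBM10 was 1.91 and 2.1 with FB23-2, against 1.09 and 1.05 in control. HNRNPA1 over HNRNPA3 moved the other way, at 1.12 and 1.13 with FB23-2 and 2.15 and 2.28 in control. These 8 pairs were chosen after their values were seen, and an exact two-sided permutation test on 2 against 2 libraries cannot go below 0.333. The direction of a ratio depends on which gene is placed on top, so it carries no weight of its own.

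**Figure D4:**
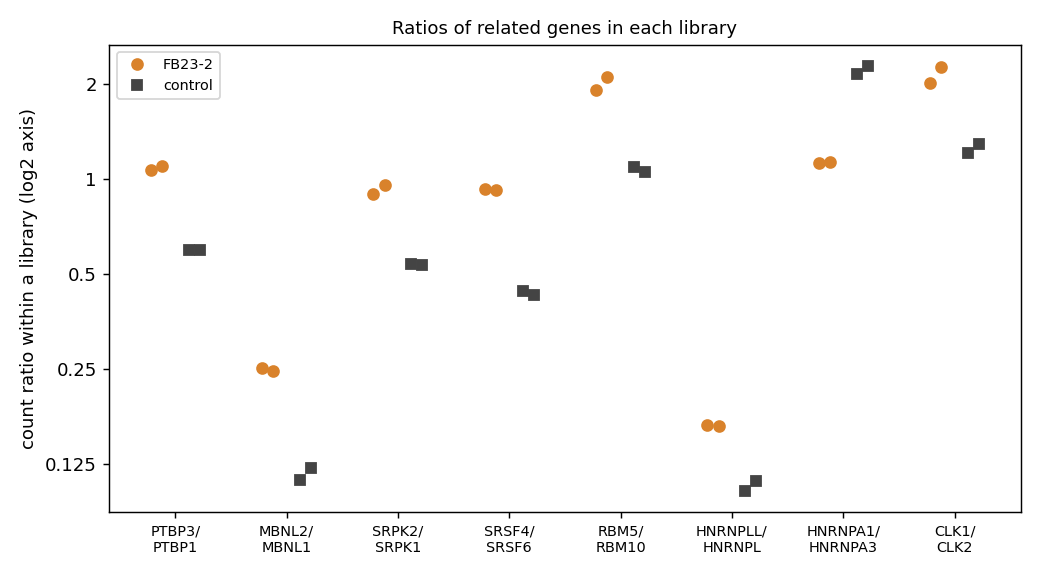
Ratio of the counts of 2 related genes within each library (vertical axis, log2 scale) for 8 pairs, with FB23-2 as circles on the left and control as squares on the right of each pair. The FB23-2 ratios lie above the control ratios in 7 pairs and below them in HNRNPA1 over HNRNPA3. These directions depend on which gene of a pair is placed on top.

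Members with a high level per exon length fell more than those with a low level. Of the 18 members with the highest mean RPKM (65.6 to 309), 15 were lower and 0 higher, with a median log2 fold change of -0.31. Of the 18 in the middle (30.9 to 57.8 RPKM), 12 were lower and 2 higher (median -0.22), and of the 18 lowest (3 to 29.7 RPKM), 4 were lower and 9 higher (median 0.08). Beside these counts, 20.3% of all tested genes were lower and 21.8% higher. At 100 CPM or more these shares were 34.5% and 36%, so calls depend on level. Shares for all tested genes of like RPKM were not computed. Spearman's rho between mean RPKM and log2 fold change was -0.51 across the 54 genes. It was -0.20 across the 2411 tested genes of at least 100 CPM with a known length and 0.00 across all 17538 with one. The points share the same 4 libraries and are not independent, and lengths are the union of all annotated exons, which makes RPKM too low for genes with long rare exons.

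**Figure D5:**
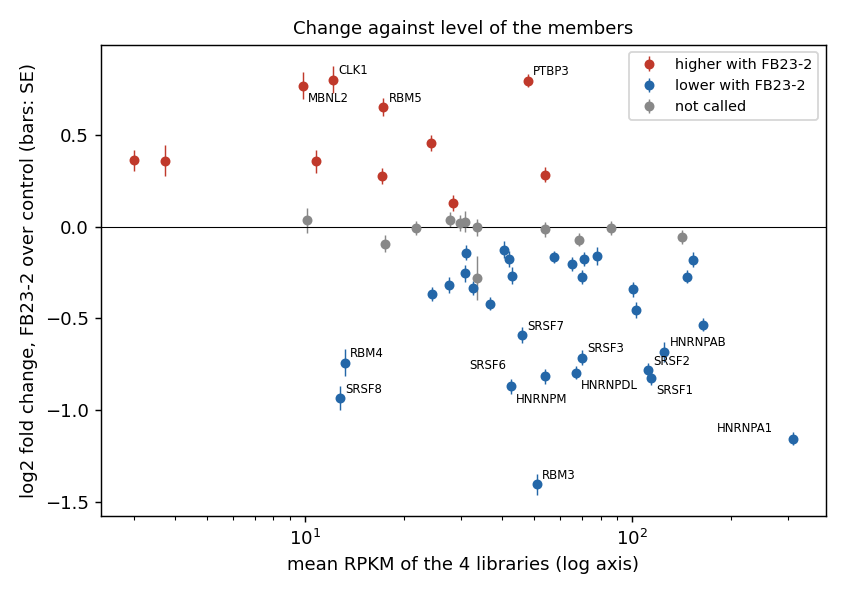
Log2 fold change with SE (vertical axis) against the mean RPKM of the 4 libraries (horizontal log axis) for the 54 tested members. The 9 genes called higher among the 18 lowest stand upper left, and HNRNPA1, the highest at 309 RPKM, stands lower right.

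A further list held 74 splicing regulators that are not among the 55 genes, some of them from the same families. Of these 62 were tested, and 31 were lower, 8 higher and 23 not called with FB23-2, with a median log2 fold change of -0.20. Among all tested genes 20.3% were lower and 21.8% higher, and among those of at least 100 CPM 34.5% and 36%. Without control replicate 2, 29 were lower and 4 higher. The largest called falls were those of RBM14 (-1.10 ± 0.05), a paraspeckle component, and of SFPQ (-0.75 ± 0.05), which pairs with NONO in paraspeckles. EWSR1 (-0.66 ± 0.04), the arginine methyltransferase gene PRMT1 (-0.60 ± 0.04), MSI2 (-0.58 ± 0.05) and FUBP1 (-0.58 ± 0.05) followed. The largest called rises were in genes of low level, CELF3 (1.99 ± 0.56, 1.04 CPM with FB23-2 against 0.237 CPM in control) and CELF5 (0.71 ± 0.19), followed by RBM38 (0.51 ± 0.06), QKI (0.35 ± 0.05), PCBP2 (0.26 ± 0.04) and RBM23 (0.25 ± 0.06). Each of these 12 passed with an edgeR adjusted p of at most 0.018. RBM14 had 52.2 CPM with FB23-2, against 112 CPM in control. The read-through RBM14-RBM4 had 26.7 CPM with FB23-2, against 15.7 CPM in control, and was not added to RBM14. The size and rank of the RBM14 fall are therefore uncertain. MBNL3, the third muscleblind gene, was at 43 and 6 CPM with FB23-2 and at 58.5 and 59.7 CPM in control. Its FB23-2 replicates differ by far more than those of MBNL1 or MBNL2, and its change did not pass (-1.24 ± 1.05, edgeR adjusted p = 0.476).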

How the data were processed

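The authors deposited 1 table of whole-number counts per gene for all 4 libraries, with no normalization. The submitters' processing notes name HISAT2 2.2.0, StringTie and hg38, and the annotation, strand setting and counting step were not given in the sources used here. Per the labels' protocols, RNA came from Trizol extraction and libraries from an Illumina TruSeq kit. No column lay outside the sample map.

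Genes were kept by filterByExpr (minimum count 10) in edgeR 4.0.16 with R 4.3.3, scaled by TMM and tested by glmQLFit (robust) and glmQLFTest on all 18817 kept genes. The p values were adjusted by Benjamini-Hochberg across these genes, with 0.05 as the threshold. The SE is the absolute log2 fold change over the square root of F. The common biological coefficient of variation was 10.5%. A count of 3 corresponded to 0.0785 to 0.125 CPM, and such floors cover counting error only. The fit was also run on simulated counts, and no statement here rests on the outcome. DESeq2 1.42.0 was an alternative. Symbols came from a list of gene names, and coordinates, overlaps and exon lengths (for RPKM, computed from CPM) from GENCODE release 29.

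The members, lists and tests were chosen with earlier results of these data known. Per-library values are given for members called with an absolute log2 fold change of at least 0.5, for the highest per exon length in each role group, and for others where a comparison turns on them, these last chosen after their values were seen. Protein sequences were not used here.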

Additional observations from a re-analysis of the deposited data

How the results depend on the processing

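The counts of members called (31 lower and 11 higher) stayed at 26 to 33 lower and 9 to 11 higher under 11 alternatives: other scalings, DESeq2, no filter, a replicate block, omission of each library, and rows of pseudogenes and read-through genes added (chosen after seeing the data). Of the calls, 24 of 31 lower and 9 of 11 higher held in every one of them. The members' median of -0.18 became -0.19 with DESeq2 size factors in edgeR, -0.13 with library size scaling, -0.22 with upper quartile scaling and -0.19 with DESeq2. Over the omissions it ranged from -0.20 to -0.17. The median over all tested genes, 0.001 in the main fit, moved in the same direction under these scalings. It was -0.009 with DESeq2 size factors in edgeR, 0.048 with library size scaling, -0.039 with upper quartile scaling and -0.009 with DESeq2. The related regulators called higher numbered 4 to 8 over the omissions, the lowest without control replicate 2. With the replicate numbers as a block 31 members were lower and 11 higher, and of all genes 4030 and 4238, against 3820 and 4097 without it; the correlation of same-numbered deviations was 0.0623, with 2 pairs, and the labels tie the numbers to no shared batch. Over the omissions, 2751 to 3316 genes were called lower and 2899 to 3439 higher.

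Among the members, the sign changed only in genes that had not passed. With library size scaling these were SRSF10 (0.045), HNRNPH3 (0.032), HNRNPUL1 (0.040) and CELF1 (0.040), and with upper quartile scaling TRA2A (-0.014), SRRM1 (-0.021), RBM25 (-0.0025) and CLK2 (-0.0075). Over the omissions SRSF10 ranged from -0.072 to 0.056, TRA2A from -0.041 to 0.089, SRRM1 from -0.028 to 0.056, HNRNPH3 from -0.062 to 0.016, HNRNPUL1 from -0.049 to 0.019 and CLK2 from -0.0089 to 0.067. The cause was not tested.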
